A study of Mus musculus with 6 samples.

Results

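Uninduced Ba/F3 cells are the no-doxycycline group of a study of an inducible PAX5-KIDINS220 fusion, and they made up 3 of its 6 arrays. They were chosen by the source name Ba/F3-P-K220 Dox(-). Ba/F3 is a mouse blood cell line of BALB/c background that the labels call leukemia cells. All 6 samples carried PAX5-KIDINS220 in the Retro-X Tet-on Advanced system, in which a doxycycline-responsive promoter drives the transgene. The 3 uninduced samples received no doxycycline, and the other 3 received 500 ng/mL for 24 h. All were grown with fetal bovine serum and 20% supernatant of WEHI-3 cells. Whether the transduced line is a clone or a pool, and whether the 3 samples came from separate cultures, is not given in the sources used here, so the spread between them may be technical. Total RNA was hybridised to Affymetrix Mouse Genome 430 2.0 arrays, and 18193 named genes were measured, each through its brightest probe set.

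Ba/F3 cells depend on interleukin-3, which WEHI-3 cells secrete. Interleukin-3 binds a specific alpha chain, which pairs with a common beta chain, and the paired receptor activates the kinase JAK2. JAK2 phosphorylates STAT5, which enters the nucleus and switches on survival, proliferation and feedback genes. The line is often described as a pro-B cell line, so factors of B, stem, myeloid and T lineages, receptors and surface markers were described in turn.

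A gene is called on here when its signal was above 500 on all 3 arrays, and off when it was below 50 on all 3. The signal is the deposited linear intensity, scaled so that each array's trimmed mean is 500. A probe set's signal depends on its own probes as well as on the amount of mRNA, so the order of signals between genes is not an order of mRNA amounts. No test was made, since 1 group is described. By these rules 5924 genes (32.6%) were on, 5474 (30.1%) were off and 6795 (37.3%) were neither. The median gene had a mean signal of 126. A result resting on a single probe set can differ from that of another of the same gene: of 4015 genes that were on and had more than 1 probe set, 834 (20.8%) also had a probe set that was off.

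Array 1 stood apart from arrays 2 and 3. Counts with arrays 2 and 3 alone are given below for only some of the lists. The promoter shares and the 40 brightest genes rest on all 3 arrays. Among lists without such a count, nuclear receptors that were on rose from 4 to 7 of 30 without array 1. TNF receptors rose from 3 to 5 of 23, and B-lineage surface and receptor genes from 1 to 3 of 20. Of 7110 genes above 500 on at least 1 array, 1267 (17.8%) differed by 2-fold or more between the highest and the lowest array, and array 1 was the farthest of the 3 in 1252 of them. Array 1 was the lower in 696 and the higher in 556. Between arrays 2 and 3, 0 of 6733 genes (0.0%) differed by 2-fold, against 1001 of 7006 (14.3%) between arrays 1 and 2 and 1151 of 7055 (16.3%) between arrays 1 and 3. The median fold between arrays among genes that were on was 1.30 for arrays 1 and 2, 1.32 for arrays 1 and 3 and 1.07 for arrays 2 and 3. The array code in the title of array 1 starts as that of a doxycycline array does, and from that array it differed by a median of 1.07-fold. The labels do not say what these codes mark. The ratios of 3′ to 5′ control probe sets were alike on the 3 arrays, from 0.637 to 0.684 for Gapdh and from 1.18 to 1.23 for Actb. The added hybridisation controls were dimmer on array 1, with BioB at 610 against 930 and 855. The part of hybridisation in the differences was not tested. With arrays 2 and 3 alone, 6427 genes (35.3%) were on and 5868 (32.3%) were off.

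**Figure D1:**
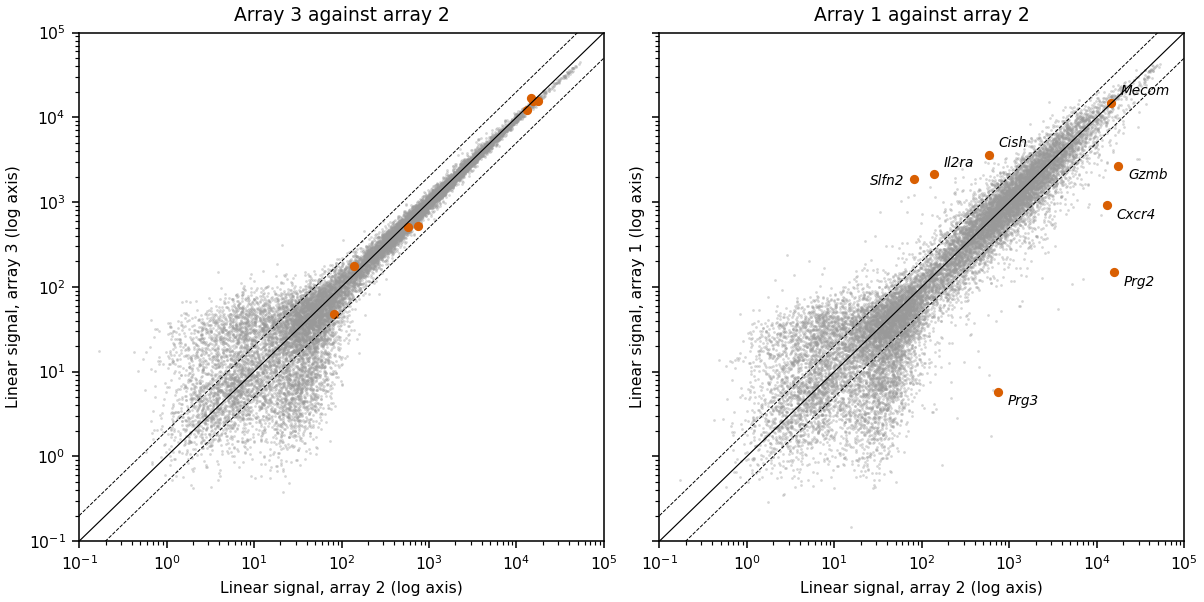
Linear signal of each of 18193 genes on array 3 against array 2 (left) and on array 1 against array 2 (right), both axes logarithmic; each grey point is a gene, the solid line marks equal signal and the dashed lines 2-fold, and the 8 orange genes are named on the right. Above 500 no gene leaves the 2-fold band on the left, whereas 1001 genes do on the right.

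The promoters of 4 genes show the sequence range among genes that were on or off. The letters are RefSeq's for build GRCm38.p6, 250 bases up to the annotated start, read 5′ to 3′ on the gene's strand. Capitals mark each CG pair, the site of DNA methylation in mammals. Myb, a progenitor transcription factor that was on, lies on the minus strand with this window at chr10:21160985-21161234. Csf2rb2, an interleukin-3 receptor beta chain that was on, has its window on the minus strand at chr15:78305722-78305971. Gata3, the T cell factor, was off and has its window on the minus strand at chr2:9878601-9878850. Il3, the cytokine the cells take from the medium, was off, with its window on the minus strand at chr11:54267280-54267529.
Myb: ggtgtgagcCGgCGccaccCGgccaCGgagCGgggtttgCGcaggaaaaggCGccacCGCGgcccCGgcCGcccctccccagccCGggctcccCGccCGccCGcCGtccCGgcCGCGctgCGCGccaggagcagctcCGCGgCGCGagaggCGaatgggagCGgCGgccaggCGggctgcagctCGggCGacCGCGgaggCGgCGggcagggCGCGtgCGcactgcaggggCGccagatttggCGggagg
Csf2rb2: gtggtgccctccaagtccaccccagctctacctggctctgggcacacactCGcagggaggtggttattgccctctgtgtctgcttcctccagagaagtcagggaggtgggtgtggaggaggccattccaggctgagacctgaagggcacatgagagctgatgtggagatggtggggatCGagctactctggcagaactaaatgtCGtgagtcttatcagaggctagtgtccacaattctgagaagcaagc
Gata3: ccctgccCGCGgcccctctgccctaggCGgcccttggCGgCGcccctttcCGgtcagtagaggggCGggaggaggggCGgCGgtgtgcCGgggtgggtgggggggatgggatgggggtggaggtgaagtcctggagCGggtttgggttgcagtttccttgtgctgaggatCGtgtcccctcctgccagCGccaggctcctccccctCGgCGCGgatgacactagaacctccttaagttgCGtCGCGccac
Il3: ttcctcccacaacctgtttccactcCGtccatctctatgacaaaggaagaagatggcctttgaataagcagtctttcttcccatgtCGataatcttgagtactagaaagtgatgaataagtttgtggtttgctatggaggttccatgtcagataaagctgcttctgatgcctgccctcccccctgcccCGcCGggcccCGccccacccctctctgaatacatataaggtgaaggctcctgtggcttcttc
The windows of Myb and Gata3 hold 40 and 19 CG pairs, and those of Csf2rb2 and Il3 hold 3 and 5. GC content was 81.2% for Myb, 70.0% for Gata3, 56.4% for Csf2rb2 and 50% for Il3. A CG-rich window thus stood before a gene that was on and before one that was off, and so did a CG-poor window.

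Across the genes with exactly 1 promoter entry in RefSeq, 11720 in number (64.4%), windows of genes that were on held a median of 18 CG pairs (interquartile range 12 to 24). Windows of genes that were off held a median of 5 (2 to 13), and the median over all 11720 was 13. The ratio of observed to expected CG pairs exceeded 0.6 in 79.3% of the windows of genes that were on, in 27.7% of those of genes that were off and in 53.9% of all. The letters TATAAA, sought on both strands, occurred in 5.6% of windows of genes that were on and 14.2% of those that were off, against 9.24% of all. AGATAA or TGATAA, the letters bound by GATA factors, sought on both strands, occurred in 7.86%, 16.3% and 11.7%. The searches are not exclusive, and a match is a description of the sequence and not a bound site. Surface markers had CG-poor windows whether on or off. The 24 windows of those that were on held a median of 5 CG pairs, with 16.7% over the ratio of 0.6, and the 48 of those that were off a median of 3, with 6.25% over it. Among the 14 windows of lineage factors that were on, the median was 18, and among 15 of receptors that were on it was 17. As background, CG-rich promoters are common in broadly expressed genes; the windows also differ in base composition, and no test of the relation was made.

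Ribosomal protein genes made up most of the 40 brightest genes. Of 49 measured cytosolic ribosomal protein genes, 43 were on (87.8%, against 32.6% of all genes), with a median mean signal of 31021. Of 39 proteasome subunits, which form the protease that degrades ubiquitin-tagged proteins, 38 were on (97.4%), with a median of 5513. Of 58 genes with symbols of translation initiation and elongation factors 50 were on (86.2%), with a median of 4026. This group was taken by symbol and also holds kinases, methyltransferases and binding proteins of these factors. Rps16 among the ribosomal proteins was off, at 1.61, 1.37 and 1.96 on arrays 1, 2 and 3. Eif4a3 among the translation factors was off as well, at 7.57, 3.40 and 6.70. An off call is a low signal of the probe set taken, and whether the mRNA was absent was not tested. Among the 40 genes with the highest mean signal, 30 carried the symbol of a ribosomal protein, and none was a proteasome subunit. The mean signals of these 40 ran from 30011 to 46873. Rps29, a small subunit protein, was the highest, at 43044, 52640 and 44936 on arrays 1, 2 and 3, the order in which signals are given throughout. Of the 40, 16 were read by probe sets whose suffix marks probes that can match other genes, and another 17 by probe sets that read several transcripts of the same gene.

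The other 10 of the 40 brightest genes had several functions. They included the translation genes Eef1a1, which carries aminoacyl-tRNA to the ribosome, at 40782, 44042 and 35264, and Pabpc1, which binds the poly(A) tail, at 34719, 39247 and 32590. Fau, whose product is cleaved into a ribosomal protein and a ubiquitin-like one, gave 27415, 35520 and 30229. These 3 had means within the range of the ribosomal proteins. Actb and Actg1, the cytoplasmic actins, gave 35690, 35803 and 29542, and 33674, 32333 and 29357. Tmsb4x, which binds actin monomers, gave 33761, 38327 and 33404. Lgals1, a galactoside-binding lectin, gave 35326, 39686 and 34326. Tpt1, a growth-related tumour protein, stood at 36369, 40509 and 32276, Ifitm1, an interferon-inducible membrane protein, at 30038, 38755 and 30446, and Hspa8, a constitutive chaperone, at 24006, 36641 and 29439. None of them had an array below 24006.

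Families that belong to other tissues, and the HOX cluster genes, lay mostly at low signal. None of 38 olfactory receptors, 31 vomeronasal receptors, 23 defensins or 33 HOX cluster genes was on, against 32.6% of all genes. In that order 29, 26, 17 and 24 of them were off (76.3%, 83.9%, 73.9% and 72.7%, against 30.1%). The HOX genes, which set position along the body axis and act in blood progenitors, had a median mean signal of 23.8, close to the 24.0 of the olfactory receptors. Hoxa5 was highest among them by its mean of 109, at 95.7, 97.1 and 135. Of 86 keratins and keratin-associated proteins 55 were off (64%) and 1 was on (1.16%), Krt42, at 682, 709 and 652. Of 24 markers of liver, skin, brain, muscle and other non-blood tissues 0 were on and 10 were off (41.7%), with 105 as the highest mean. Of the measured 74 genes named as numbered CD antigens 10 were on (13.5%) and 34 off (45.9%).

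**Figure D2:**
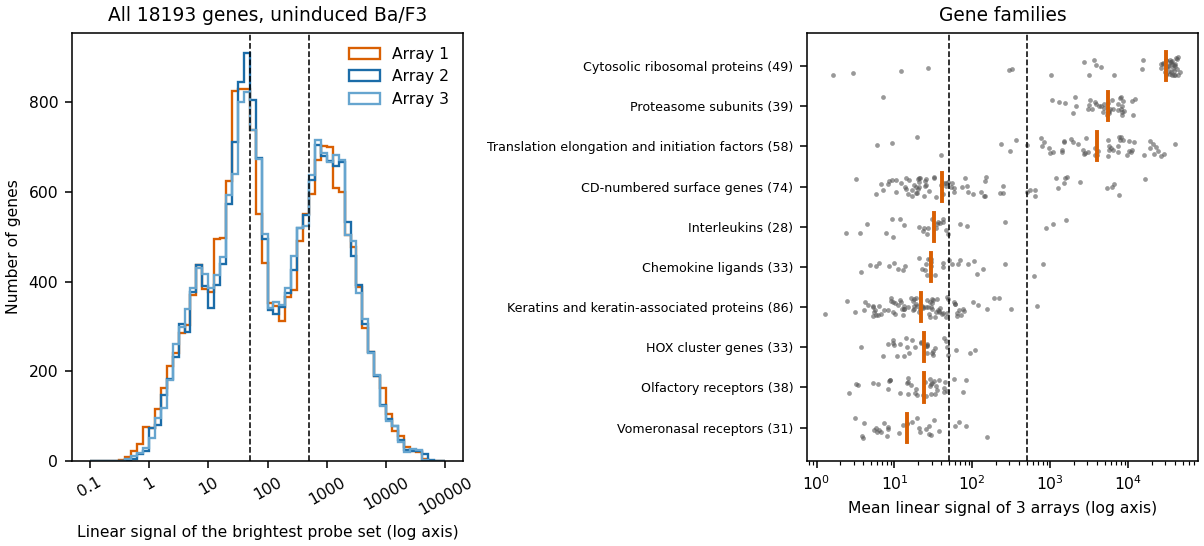
Left, number of genes by linear signal (logarithmic axis) on each of the 3 uninduced arrays; right, mean signal of the 3 arrays for each gene of 10 gene families, with the orange bar at the family median. The 3 histograms share a low and a high peak on either side of the interval from 50 to 500 (dashed lines), and ribosomal protein genes reach a median of 31021 against 24.0 for olfactory receptors.

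Lineage transcription factors were on more often than genes at large, with 31 of 72 measured (43.1%) against 32.6% of all genes, and 18 (25%) off against 30.1%. With arrays 2 and 3 alone 32 were on and 18 off. The share differed between the lists. Of the stem and progenitor factors 14 of 21 were on, and of the myeloid, mast cell and erythroid factors 10 of 18, with median mean signals of 1258 and 970. Of the B-lineage factors 5 of 20 were on, with a median of 53.2, and of the T and innate lymphoid factors 2 of 13, with a median of 102.

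Among stem and progenitor factors, Mecom, the zinc finger gene of the EVI1 locus, gave 14623, 14598 and 16915. A different probe set of Mecom was off on all 3 arrays, so the bright signal is that of 1 of 3 probe sets. Gata2, a zinc finger factor of stem cells and mast cells, gave 8068, 16093 and 14693, and Myb, a factor of immature blood cells, 10292, 13747 and 12717. Each of these lay far above 500 on every array. Ikzf2, a member of the Ikaros family, gave 5174, 10108 and 9738. Lyl1, a basic helix-loop-helix factor, gave 11279, 5285 and 4391, and its relative Tal1 4585, 5082 and 4866. Gata2 and Ikzf2 were lowest on array 1 and Lyl1 was highest there, while Tal1 was level. Cbfb, the shared partner of the RUNX factors, gave 8672, 6071 and 6267, and Runx1 itself 622, 1987 and 1789. Fli1, an ETS factor, gave 2165, 3618 and 4601. Spi1, which encodes the ETS factor PU.1, gave 969, 1418 and 1389. Gfi1b, a repressor of the erythroid and megakaryocytic lineages, lay between 2608 and 2915. Another 3 progenitor factors were far higher on array 1 than on the others: Hhex with 2394, 632 and 592, Lmo2 with 652, 357 and 291, and Erg with 776, 186 and 175. Lmo2 and Erg therefore missed the rule for on. Etv6 and Ldb1 were on with lowest signals of 838 and 855. Hoxa7 and Hoxa10 were off, and Hoxa9, Meis1 and Nkx2-3 stayed at or below 173.

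Erythroid, megakaryocytic and mast cell factors were also among the genes that were on. Gata1, the master factor of these lineages, gave 1702, 2642 and 2517, and its cofactor Zfpm1 4423, 2561 and 3024. Klf1, a factor of red cell genes, gave 1574, 3444 and 3401. Nfe2, which acts at globin and platelet genes, gave 4540, 6773 and 6439. All 4 were on by a wide margin on each array. Among factors of granulocytes and macrophages, Cebpb gave 4459, 4775 and 4582 and Cebpd 638, 1063 and 1124, whereas Cebpa gave 9.15, 48.4 and 57.6. Gfi1, the repressor needed by neutrophils, was off at 14.7, 16.9 and 10.3. Cebpa and Gfi1 were thus at low signal where Cebpb was on. Xbp1, a factor of the unfolded protein response, gave 12816, 9161 and 9180, and the inhibitor of helix-loop-helix factors Id1 11909, 5384 and 4903. Bhlhe40 gave 5672, 2272 and 2394. Id1 and Bhlhe40 were higher on array 1 by over 2-fold. Mitf, a mast cell and pigment cell factor, was neither on nor off, at 288, 406 and 388, and Klf4, Egr1 and Trib1 were off.

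Among the B-lineage factors the E proteins were on, and the commitment factor Ebf1 was off. These helix-loop-helix factors, which many cells express, were Tcf12 at 4264, 4173 and 4584, Tcf3 at 1657, 1676 and 1221, and Tcf4 at 519, 565 and 649. Foxp1 gave 1952, 4772 and 4687, and Ikzf1, which encodes Ikaros, 976, 1211 and 1507. These are the 5 that were on. Ebf1, which commits progenitors to the B lineage, was off at 15, 39.0 and 36.3, and all 5 of its probe sets were off. Pax5, which holds that commitment, gave 23.9, 92.0 and 81.4, so it was neither on nor off, and its other probe set was off at 15.6, 3.76 and 20.3. The human or mouse origin of the transgene is not given in the sources used here, and these probe sets need not read it. Kidins220, the other partner of the fusion, was on at 2289, 4154 and 3982. A further probe set of Kidins220 was on at 1137, 2695 and 2227. Its other probe sets were neither on nor off, at 79.8, 155 and 175, and at 48.8, 65.7 and 120. Whether any of them reads the transgene was not tested. Spib, Pou2af1, Bcl11a, Lef1, Irf8, Ets1 and Mef2c were off, the highest of their signals being 49.0. Bach2, Irf4, Ikzf3, Foxo1, Pou2f2 and Sox4 were neither, and none of their signals passed 99.8.

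Among T and innate lymphoid factors, Runx3 gave 1103, 852 and 930 and Nfil3, a basic leucine zipper factor, 1064, 771 and 685. Zbtb16, which encodes PLZF, gave 476, 2288 and 4209, so it was on only with arrays 2 and 3 alone. The suffix of this probe set marks probes that can match other genes. Other probe sets of Zbtb16 gave 437, 1914 and 1696, and 100, 277 and 273. Only the brightest was higher on array 3 than on array 2. Gata3 gave 1.24, 12.3 and 3.92, and was off. Tbx21 and Eomes, the T-box factors, and Tox were off as well, with no signal above 47.6. Of 30 nuclear receptors 4 were on (13.3%, against 32.6% of all genes). They were the glucocorticoid receptor Nr3c1 at 830, 1811 and 1910, the retinoid partner Rxrb at 997, 1446 and 1480, Nr1d2 at 576, 1265 and 1275, and Esrra at 610, 829 and 676. Another 10 were off (33.3%, against 30.1% of all genes), among them Pparg at 3.18, 3.81 and 7.11.

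**Figure D3:**
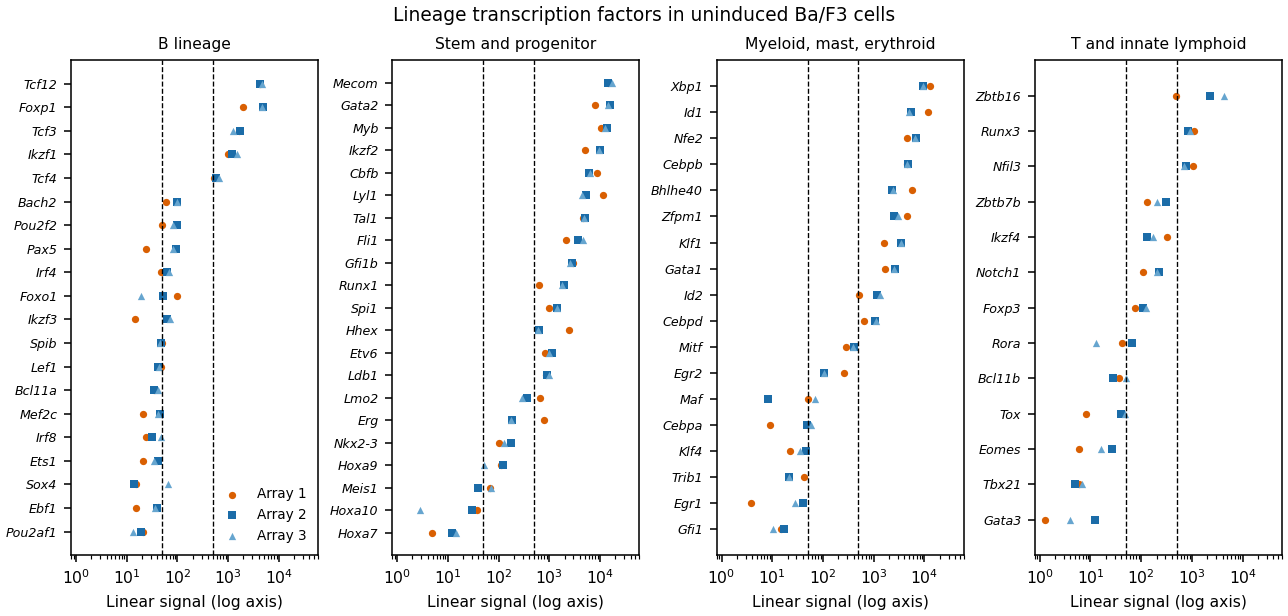
Linear signal (logarithmic axis) of each of the 72 measured lineage transcription factors on the 3 uninduced arrays, in 4 panels by lineage; dashed lines stand at 50 and 500. Stem and progenitor factors and myeloid, mast and erythroid factors lie mostly right of 500, with 14 of 21 and 10 of 18 on, whereas 5 of 20 B-lineage factors do.

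Receptors were on less often than genes at large: 20 of 164 measured (12.2%) against 32.6%, with 50 (30.5%) off against 30.1%. With arrays 2 and 3 alone 28 were on and 56 off. Both beta chains of the interleukin-3 receptor were on. Csf2rb, the beta chain shared with the receptors of GM-CSF and interleukin-5, gave 8398, 20153 and 20490, and a second probe set of it 3072, 9946 and 9748. Csf2rb2, the beta chain of the mouse that serves interleukin-3 alone, gave 4906, 16571 and 16421. The beta chain genes are near copies of each other, and whether their probes cross-hybridise was not tested. Il3ra, the alpha chain that binds interleukin-3, gave 296, 827 and 719. It was above 500 on arrays 2 and 3 and below on array 1, the array on which both beta chains were also lowest. The alpha chains of the other receptors that use this beta chain were off: Csf2ra at 30.4, 27.2 and 46.8 and Il5ra at 37.0, 35.9 and 3.84.

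The other type I receptors that were on were Il4ra, at 880, 922 and 973, and Crlf2, the thymic stromal lymphopoietin receptor, at 1736, 1931 and 1865. Both were level across the arrays. Il7r, which pro-B cells use in the body, was off at 42.3, 37.6 and 31.2. Il6st, the shared chain of the interleukin-6 family, Csf3r, Lifr, Il9r and Ghr were off too. Epor, the erythropoietin receptor, was between the limits at 274, 485 and 522. Il2ra, the alpha chain of the interleukin-2 receptor, gave 2121, 138 and 178, so it was bright on array 1 only. Il15ra and Il27ra were above 500 on array 1 only as well, at 652 and 611 against no more than 359 on the others. In all, 4 of 28 type I receptors were on (14.3%, against 32.6% of all genes) and 10 off (35.7%, against 30.1%). With arrays 2 and 3 alone 5 were on.

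Of the 10 type II receptors, which bind interferons and the interleukin-10 family, Ifnar2 was on at 1053, 1574 and 1496, and Ifnar1 gave 420, 653 and 575. Ifngr1 gave 494, 3285 and 3567, and Il10rb, a chain shared by interleukin-10 and related cytokines, 459, 1269 and 1313. Ifngr1, Ifnar1 and Il10rb were on with arrays 2 and 3 alone, which brought the type II receptors that were on from 1 to 4 of 10. Ifnlr1, the receptor of interferon lambda, gave 37.9, 57.3 and 43.0, and Il10ra, Il20rb and Il22ra1 were off. By all 3 arrays 10% of the list was on and 30% off, against 32.6% and 30.1% of all genes.

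Of 37 receptor tyrosine kinases 3 were on (8.11%, against 32.6% of all genes) and 12 off (32.4%, near the 30.1% of all genes). Igf1r, the receptor of insulin-like growth factor, gave 1490, 4942 and 5322, the insulin receptor gene Insr 603, 985 and 1040, and Axl, a receptor of the TAM group, 653, 682 and 573. Kit, the stem cell factor receptor of progenitors and mast cells, was off at 30.6, 22.7 and 45.0, and both its probe sets were off. Flt3, the receptor of early lymphoid progenitors, gave 7.34, 34.0 and 57.5. The kinase receptors of those early cells were therefore at or near the off range where the progenitor factors were on. Csf1r, the macrophage growth factor receptor, lay between, at 128, 406 and 372. Serine kinase receptors of the TGF-beta family were on in 4 of 11 cases (36.4%) and off in 3 (27.3%), shares near those of all genes. The 4 included Tgfbr1 at 1024, 2097 and 2117 and Tgfbr2 at 1052, 1748 and 1861, and Acvr1b and Bmpr2 were the others.

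Several chemokine receptors differed between the arrays. Cxcr4, the receptor of the marrow chemokine CXCL12, gave 923, 13098 and 12161. Ccr2, a monocyte receptor, gave 255, 2799 and 3045, and Ccr1 328, 1694 and 1665. All 3 were lowest on array 1. Cxcr4 was the only 1 of 21 that was on (4.76%, against 32.6% of all genes), or 3 with arrays 2 and 3 alone. On the 3 doxycycline arrays, given here only as values of other arrays, Cxcr4 stood at 946, 14014 and 15520, the first being the array whose code starts as that of array 1. Ccr3, Ccr7, Ccr8, Ccr9 and Ackr3 were off (23.8%, against 30.1% of all genes).

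In the TNF receptor family 3 of 23 were on (13%, against 32.6% of all genes) and 3 off (13%, against 30.1%). Tnfrsf13b, which encodes the B cell receptor TACI, gave 3073, 2859 and 2490, Tnfrsf1a 1036, 1209 and 1112, and Ltbr, the lymphotoxin beta receptor, 533, 592 and 510. Tnfrsf14 gave 67.7, 1405 and 1335, and Fas, the death receptor, 49.6, 350 and 293. Cd27, Tnfrsf17 and Eda2r were off. Of the interleukin-1, interleukin-17 and Toll-like receptors 2 of 19 were on (10.5%) and 10 off (52.6%). Those that were on were Il18rap at 940, 1537 and 1321 and Il17ra at 831, 1178 and 1368. Tlr2 and Tlr4 lay between 211 and 473. Notch2 and Lrp6 were on among 15 Notch and Wnt receptors (13.3%), with Notch2 at 2388, 3999 and 4219. Fzd5, Fzd7, Fzd8 and Fzd9 were off (26.7%).

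**Figure D4:**
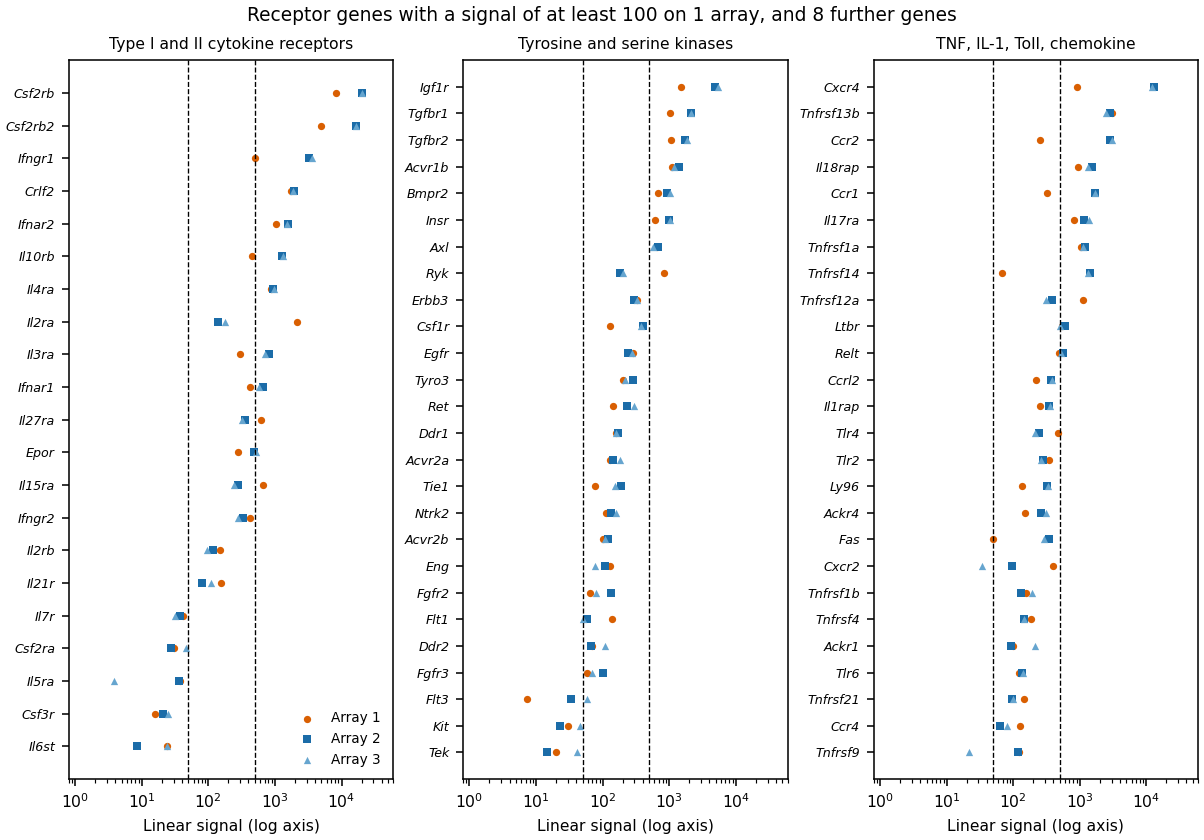
Linear signal (logarithmic axis) on the 3 uninduced arrays of receptor genes that reached 100 on at least 1 array, with 8 further genes, in 3 panels; dashed lines stand at 50 and 500. Csf2rb, Csf2rb2, Igf1r and Cxcr4 are the brightest, and array 1 lies to the left of the other arrays for these 4 and to the right for Il2ra.

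Of 22 JAK, STAT, SOCS and related genes, a list not confined to the interleukin-3 receptor, 16 were on (72.7%, against 32.6% of all genes) and 0 off. Their median mean signal was 1179, against 126 for all genes. Jak2, the kinase bound to the beta chain, gave 1141, 2032 and 2137, and Jak1 1678, 3472 and 3643. Stat5a and Stat5b, the factors it activates, gave 724, 884 and 944, and 565, 970 and 1113. Each was on, and each was lowest on array 1. Ptpn6, the phosphatase that damps cytokine receptors, gave 2729, 3374 and 2881, and Socs2, a feedback inhibitor, 2425, 2595 and 2378.

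Some STAT5 target genes differed between the arrays in the other direction, and they are named here after their values were seen. Cish, an inhibitor that STAT5 induces, gave 3583, 581 and 514. Socs1 gave 304, 38.7 and 43.2, and the kinase Pim2 1722, 238 and 316. Osm, the gene of oncostatin M, gave 1240, 470 and 437. These 4, like Il2ra above, were highest on array 1. Other genes known to respond to interleukin-3 were level: Pim1 gave 10258, 11475 and 12351, Socs2 the signals above, and Myc 5005, 5766 and 5366. Of the growth and survival list 12 of 19 were on (63.2%, against 32.6% of all genes), with a median of 1034. Mycn gave 10687, 16848 and 16904, Bcl2, which blocks cell death at mitochondria, 10554, 10600 and 9815, and its relative Mcl1 6087, 6258 and 7536. Ccnd2 and Ccnd3, the D-type cyclins of blood cells, were on at 6344, 5344 and 5630, and at 3080, 2753 and 2552, whereas Ccnd1 stayed at or below 172. The kinases these cyclins bind were on, Cdk6 at 8035, 9334 and 9228 and Cdk4 at 7476, 3860 and 3470. Bcl2l11, which encodes the death-promoting BIM, gave 329, 1411 and 1361.

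Of 32 cytokine genes 16 were off (50%, against 30.1% of all genes) and 4 on (12.5%, against 32.6%), with a median mean signal of 35.3. Il3 was off at 1.62, 18.2 and 7.75, and so were Csf2, Il5, Il4, Il7 and Csf3. The genes that were on were Il6, at 961, 1155 and 1146, Il16, at 1077, 829 and 729, Ltb, a membrane-bound lymphotoxin, at 1529, 3271 and 3346, and Tgfb1, at 2781, 750 and 666. Il15 gave 292, 2385 and 2155. Among 33 chemokine ligands 0 were on and 18 off (54.5%), or 2 on with arrays 2 and 3 alone: Ccl9, at 345, 1034 and 1073, and Ccl6, at 456, 703 and 712.

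Surface markers were on in 38 of 225 measured genes (16.9%, against 32.6% of all genes) and off in 84 (37.3%, against 30.1%). With arrays 2 and 3 alone 51 were on and 88 off. The markers of the B lineage, the lineage usually given for this line, were largely low. Of 20 measured, 10 were off (50%) and 1 was on (5%), and their median mean signal was 29.5. The gene that was on was Btk, a kinase of the B cell receptor that myeloid and mast cells also use, at 4742, 4896 and 4759. Cd79a, a signalling chain of the B cell receptor, was off at 11.7, 8.57 and 40.3, whereas Cd79b gave 467, 662 and 531. The recombinase genes Rag1 and Rag2 were off, at 11.0, 2.48 and 1.07, and at 17.4, 12.6 and 5.19. Dntt, which adds nucleotides at the joints of antibody genes, was off, and the surrogate light chain genes Igll1 and Vpreb1 stayed at or below 118. Ighm, the mu heavy chain, gave 11.3, 455 and 534 by the brightest of its 11 probe sets. Another gave 11.9, 399 and 404, whereas a further probe set gave 212, 172 and 127 and several were off. Cd72 lay near the limit at 478, 516 and 517. Ms4a1, which encodes CD20, Blnk, Bst1 and Cd24a were off, and Cd22 stayed at or below 78.2. The defining markers of the lineage were thus at low signal on all 3 arrays, apart from Cd79b, Cd72 and, on arrays 2 and 3, some probe sets of Ighm.

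Of the markers of T and natural killer cells 1 was on, a granzyme. Of 18 T cell markers 0 were on, against 32.6% of all genes, and 9 off (50%, against 30.1%). Cd3e, Cd4, Cd2 and Cd8b1 did not pass 31.5 on any array. Cd3g gave 36.0, 316 and 382, and Zap70 and Lat, which relay the T cell receptor signal, 271, 327 and 442, and 381, 422 and 337. Of 9 natural killer markers 1 was on (11.1%) and 6 were off (66.7%). Gzmb, the granzyme B gene, which mast cells can also express, was the 1 that was on, at 2693, 17703 and 15510. Prf1, whose product forms pores beside it, stayed between 127 and 146.

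Mast cell genes were on in part. Fcer1g, the shared signalling chain of Fc receptors, gave 4054, 5476 and 5447, Srgn, the core protein of granule proteoglycans, 20405, 25673 and 22269, and Alox5, which starts leukotriene synthesis, 977, 837 and 903. These 3 are expressed by other blood cells too. Several granule proteases and the histamine enzyme of mast cells were off: Cpa3 at 26.2, 5.75 and 6.82, Tpsb2 at 2.59, 17.7 and 6.91, and Hdc at 18.1, 13.7 and 11.8. Of 18 genes of the list 3 were on (16.7%, against 32.6% of all genes) and 10 off (55.6%, against 30.1%). The median mean signal was 22.0. Ms4a2, the beta chain of the IgE receptor, gave 171, 501 and 516. The chymase Cma1, another granule protease, gave 17.3, 436 and 449, and both genes were lowest on array 1.

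Eosinophil granule genes divided the arrays. Prg2, the gene of major basic protein, gave 148, 15574 and 15405, and its relative Prg3 5.76, 746 and 528. Epx, eosinophil peroxidase, gave 37.1, 396 and 430, and Siglecf, a lectin of the eosinophil surface, 105, 810 and 680. All 4 were low on array 1 and higher on arrays 2 and 3. The defining receptors of eosinophils, Ccr3 and Il5ra, did not pass 37.0 on any array, and Alox15 was off. Over the 7 genes of the list the summed signal was 342 on array 1, 17578 on array 2 and 17062 on array 3. None of the 7 was on, against 32.6% of all genes, and 3 were off (42.9%, against 30.1%). With arrays 2 and 3 alone 3 were on. On the doxycycline arrays Prg2 stood at 207, 20881 and 19894, again with the low value on the array whose code starts as that of array 1. On the same doxycycline arrays Gzmb stood at 747, 11633 and 13338, and Il2ra at 574, 75.4 and 98.9. The first values of Gzmb and Il2ra were thus well below their 2693 and 2121 on array 1.

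Neutrophil and macrophage genes were on in small numbers. Ngp, a granule protein gene, gave 877, 5305 and 5060, Prtn3, proteinase 3, 1274, 1663 and 1344, and S100a9, a calcium-binding protein, 1297, 783 and 759. Its partner S100a8 gave 1500, 123 and 150. The other primary granule genes of the list, Mpo, Elane and Ctsg, stayed at or below 89.7, and Camp was off. Of 14 neutrophil genes 3 were on (21.4%, against 32.6% of all genes) and 2 off (14.3%, against 30.1%). Of 13 monocyte and macrophage genes 1 was on (7.69%) and 5 were off (38.5%). Adgre1, which encodes F4/80, was the 1 that was on, at 755, 838 and 921. Cd14, Msr1, Marco and Cd163 were off, and Lyz2 stayed at or below 249. Fcgr1 gave 771, 33.2 and 52.7.

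Of 16 erythroid and megakaryocytic markers 2 were on (12.5%) and 9 off (56.2%), against 32.6% and 30.1% of all genes. Tfrc, the transferrin receptor of dividing cells, gave 7784, 5660 and 6104, and Itga2b, the platelet integrin CD41 that progenitors also carry, 3291, 2558 and 2405. These were the genes that were on. Rhag, a red cell membrane protein, gave 884, 388 and 551, above 500 on arrays 1 and 3. Hba-a1, Alas2 and Slc4a1, which encode a globin, the first enzyme of red cell haem synthesis and the band 3 protein, were off, with no signal above 24.6, and so were Pf4, Ppbp and Vwf of platelets. The platelet glycoprotein genes Gp9 and Gp5 gave 385, 951 and 991, and 316, 437 and 401. Hba-x, an embryonic globin outside the list, gave 9.10, 585 and 735.

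Among stem cell surface markers Cd34 was off at 15.9, 15.2 and 13.9, and Procr, Prom1 and Cd9 were off too. Cd48, carried by most blood cells, was on at 8289, 5136 and 5035. Slamf1 gave 687, 148 and 223. Genes of the MHC class I pathway were on in 6 of 8 cases (75%, against 32.6% of all genes), with a median mean signal of 5264. Besides the class I chains, this list holds peptide transport and chaperone genes. B2m, the light chain, gave 11487, 20439 and 20995, H2-D1, a heavy chain, 5199, 9042 and 9121, and Tap2, a peptide transporter chain, 4437, 9796 and 8752. H2-K1 lay about the limit at 466, 451 and 680. MHC class II genes were low: H2-Ab1 and H2-Eb1 were off, H2-Aa stayed at or below 77.3, and the invariant chain Cd74 gave 186, 138 and 116. Bst2 was on, level at 1371, 1361 and 1378.

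Adhesion genes held the largest number of surface genes that were on, 15 of 34 (44.1%, against 32.6% of all genes), with a median of 251. Ptprc, which encodes the blood cell phosphatase CD45, gave 7450, 15957 and 15838. Itgb2, the beta chain of the leukocyte integrins, gave 5160, 13754 and 12602, and Itgal, an alpha chain that pairs with it, 1396, 710 and 797. Itga4, an alpha chain of the integrin that binds VCAM-1, gave 2900, 13217 and 13050. Its beta chain Itgb1 gave 1969, 1696 and 1567, and Itgb7, with which it pairs as well, 303, 1904 and 1937. Cd44, the hyaluronan receptor, gave 2825, 10127 and 10220, and Spn, the sialoglycoprotein CD43, 2239, 4339 and 4843. Ptprc, Itgb2, Itga4, Cd44 and Spn were all on and all lowest on array 1, and Itgal and Itgb1 were highest there. Itgam and Itgax, the alpha chains of myeloid and dendritic cells, were neither on nor off, and Itgb3, Itgb6 and Itgb8 were off.

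Of 27 Fc, inhibitory and activating receptors 5 were on (18.5%, against 32.6% of all genes) and 6 off (22.2%, against 30.1%). With arrays 2 and 3 alone 8 were on. Cd47, the signal that holds back phagocytes, gave 14075, 19028 and 16866. Tyrobp, the adaptor DAP12, gave 2647, 6616 and 6564. Cd300lf and Inpp5d, the phosphatase SHIP1, were on with lowest signals of 929 and 1068, and Hcst, the adaptor DAP10, with 515. Fcgr2b, the inhibitory IgG receptor, gave 336, 1500 and 1411, and Pirb 168, 1190 and 1158. Cd300a, Siglece, Pdcd1 and Cd200 were off.

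**Figure D5:**
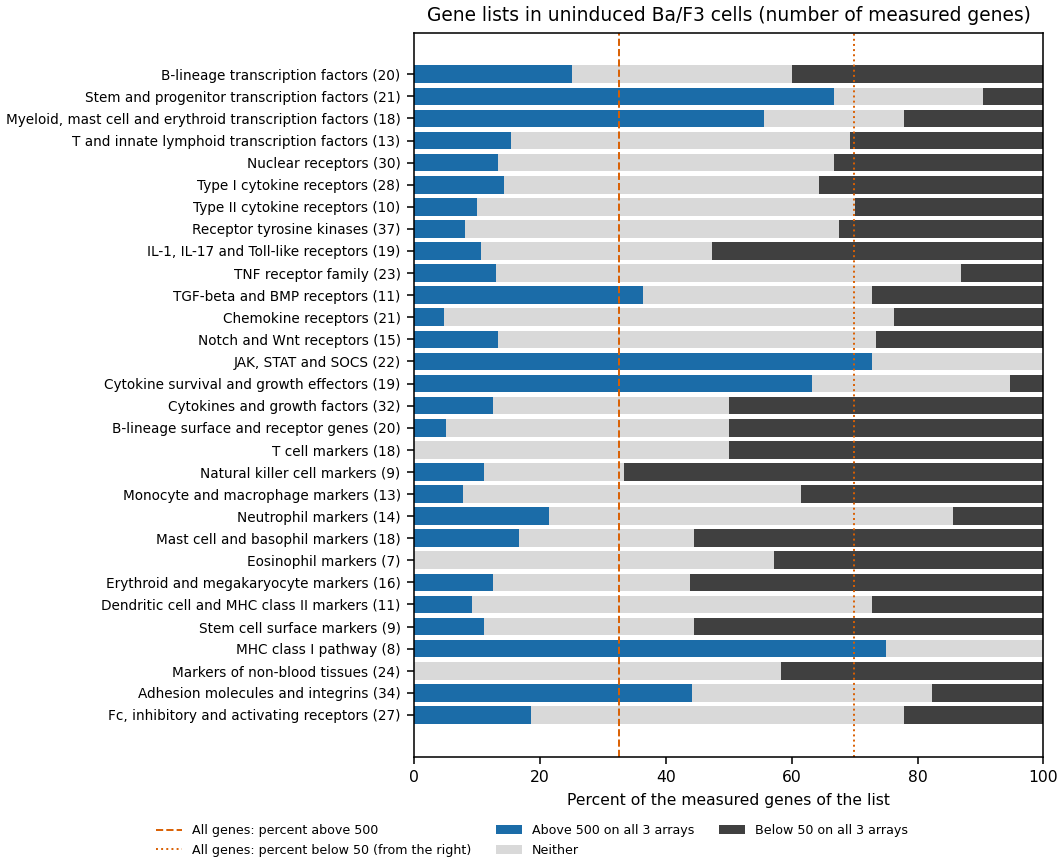
Percent of the measured genes of each of 30 lists that were above 500 on all 3 uninduced arrays (blue), below 50 on all 3 (dark) or neither (grey); the dashed line stands at 32.6%, the share of all genes that were on, and the dotted line marks 30.1% off, counted from the right. JAK, STAT and SOCS genes and MHC class I pathway genes have no dark bar, while T cell, eosinophil and non-blood markers have no blue bar.

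All 9 measured housekeeping genes were on, with the RNA polymerase gene Polr2a, at 1549, 778 and 929, and Tbp, at 1257, 1081 and 1134, among the dimmest of them. Of the X-inactivation and Y-linked genes, Xist stayed between 47.4 and 61.5, and Uty, Kdm5d and Eif2s3y at or below 52.3, so none was on.

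The 15 genes that differed most between the arrays, among those above 500 on at least 1, all set array 1 against the other 2. Prg3 led with a ratio of highest to lowest array of 130, followed by Gpr183, a lymphocyte migration receptor, at 6.10, 654 and 608, and Prg2. In 7 of the 15, Prg3, Gpr183, Hba-x, Ighm, Slfn2, Cfp and Fcgr1, the lowest array was below 50, so the size of the ratio and its rank are uncertain. Gria3, a glutamate receptor, gave 54.5, 3587 and 4861, Hba-x the signals above, and Pik3c2g, a lipid kinase, 124, 7009 and 7801. Csrp3, a muscle protein, gave 108, 5275 and 4851. Ighm, given above, Slc34a3, Tnfrsf14 and Pkd2l1 were also lowest on array 1, with ratios from 19.5 to 47.3. The other 4 were highest on array 1: Slfn2, a growth regulator of the Schlafen family, at 1863, 82.4 and 47.5, Cfp, the complement protein properdin, at 759, 68.1 and 23.7, Fcgr1, and Myct1, at 1034, 58.1 and 94.4. Of all 18193 genes, 6 were below 50 on array 1 and above 500 on both others, and 0 the reverse. The 6 were Prg3, Gpr183, Hba-x, C1s1, P2rx7 and 2900026A02Rik.

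The listed genes nearest to the limits show how fine the classes are. Just inside the rule for on stood Ltbr, with a lowest signal of 510, Cish with 514, Hcst with 515 and Id2 with 518. Just outside stood Ifngr1, with a lowest signal of 494, Relt with 484, Cd72 with 478 and Zbtb16 with 476. Just inside the rule for off were Cntfr, whose highest signal lay just under 50, Cdh5 with 49.9, Erbb2 with 49.7 and Tlr8 with 49.6, and just outside were Bcl11b and Umod with 50.5, Il18 with 50.6 and Mertk with 50.9. Below 50 the arrays differed widely, by a median of 2.01-fold between arrays 2 and 3 among genes that were off, so signals there have no order.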

How the data were processed

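RNA of 6 samples was measured on Affymetrix Mouse Genome 430 2.0 arrays; the 3 without doxycycline are described. The deposited values are linear intensities per probe set, which the authors made in Affymetrix Expression Console, as the submitters' processing notes state. Its version and algorithm are not stated in those notes. The values show that each array was scaled to a mean of 500 after trimming 2% at each end, which hides differences in total mRNA. Of 45101 probe sets, 64 were controls, 34945 had 1 gene symbol in the platform annotation, 932 had several and 9160 were not listed. For each of 18193 genes the probe set brightest on average on the 3 uninduced arrays was taken. Classes and ratios were computed in Python 3.11.15 with pandas 2.3.3 and numpy 2.4.6, and were checked on simulated data. No test, background correction or further normalization was applied. Array numbers follow sample order and pair nothing. With 3 arrays, precision is low.

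Named genes were the 40 brightest, members of 33 lists (622 genes, 570 measured), the 15 most apart between arrays and the members nearest the limits. The genes and lists were chosen with earlier results of these data known. Other probe set rules, scalings, limits and fewer arrays were tried as alternatives.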

Additional observations from a re-analysis of the deposited data

How the results depend on the processing

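The 6 counts of the report were recomputed under each alternative. Doubling the limits to 1000 and 100 left 3870 genes on, 8293 off, 20 lineage factors on and 11 receptors on; setting them at 250 and 25 left 2462 genes off and 36 receptors on. The count of genes apart between arrays was 3042 at 1.5-fold and 366 at 3-fold. Leaving out 1 array at a time gave 5985 to 6430 genes on, 5839 to 6052 off, 31 to 32 lineage factors on, 20 to 28 receptors on, 38 to 51 surface markers on and 1 to 1153 genes apart. The 1 is without array 1, with probe sets chosen anew over arrays 2 and 3. All other alternatives stayed within 1.5 times of the count. For probe sets these were the mean of all and the choice over 6 arrays. Another left out probe sets whose suffix marks probes shared between genes or between transcripts of the same gene. The rest were quantile or median scaling, the mean of the 3 arrays and other minimum signals. No paired analysis was possible because the results come from no test and the labels give no replicate numbers. Below 50, where arrays 2 and 3 differed by a median of 2.01-fold, a signal shows only that the probe set taken was low.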

Other observations

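Of 10092 probe sets with no gene symbol or several, which entered no count above, 780 (7.73%) were above 500 on all 3 uninduced arrays and 5313 (52.6%) were below 50 on all 3.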
